A study of Mus musculus with 2 samples.

Results

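Retinol transport and metabolism was described here through 9 genes, chosen by symbol, of the 32285 genes listed in each of 2 single-cell RNA libraries. The genes were Rbp4, Stra6, Crabp1, Crabp2, Rdh10, Dhrs3, Aldh1a1, Aldh1a2 and Cyp26b1, and all 9 were found in both tables. The libraries came from fetal liver of CD1 mouse embryos at E14.5, where CD1 is an outbred stock. The WT library pooled 2 embryos with intact Nfkbia, the gene of the NF-κB inhibitor IκBα, and the KO library pooled 3 embryos lacking IκBα. No cell was treated. Cells were depleted of lineage-positive cells and sorted for LSK progenitors, which carry SCA1 and cKIT but no lineage marker, whereas the sample titles name LT-HSCs. Each genotype has a single library, so nothing could be tested and no p-value was computed. Embryos of a pool could not be told apart, and every interval below is a 95% interval that covers counting error only.

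Vitamin A leaves the liver as retinol bound to RBP4, which circulates in a complex with transthyretin, and cells can take it up through the receptor STRA6. Inside the cell retinol is oxidised to retinaldehyde by RDH10 and reduced back by DHRS3, and retinaldehyde is turned irreversibly into retinoic acid by the ALDH1A enzymes. CRABP1 and CRABP2 bind retinoic acid in the cytoplasm and CYP26 enzymes break it down. In fetal liver, hepatocytes are the known source of RBP4, and stellate and other mesenchymal cells are known for handling retinoids.

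Cells were assigned to types by marker gates, that is, by a minimum number of marker UMIs per 10000 UMIs of the cell. A UMI marks an original RNA molecule. None of the 9 genes was a marker of a gate. After filtering, 3458 WT and 4417 KO cells remained, with a median of 28065 and 19560 UMIs per cell. The WT cells were 1.43 times deeper, so shares of positive cells were compared after thinning each cell to 5000 UMIs. Nfkbia gave 1478 UMIs in the WT and 7 in the KO library, 13.6 against 0.0707 CPM (UMIs per 1000000 summed UMIs), in keeping with the labels. Kit was detected in 57.9% of WT and 44.1% of KO cells and Ly6a, which encodes SCA1, in 12.1% and 8.24%, and the erythroid-like gate took in 42.6% and 46.5% of the cells, so many cells lacked a defining transcript of the LSK label. Of the kept cells, 351 WT and 312 KO were stem cell-like, but 141 and 158 cells lay within 20% of that gate's level. The libraries shared 7 barcodes. A cluster of 105 cells held KO cells and no WT cell, and 24 of them were megakaryocyte-like, 29 ungated, 30 in several gates and 17 erythroid-like. Cells with Xist but no Y-linked UMI were 95.9% in WT and 69.4% in KO. Cells with Y-linked UMIs but no Xist were 0.116% in WT and 17.4% in KO. The pools thus also differed in their sex-linked transcripts, a difference that cannot be told apart from genotype here.

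Across all kept cells, Rbp4 gave 14973 UMIs in the WT and 18779 in the KO library, Dhrs3 1449 and 1242, and Rdh10 568 and 508. The other 6 genes were rare. Aldh1a1 gave 21 and 19 UMIs, Aldh1a2 32 and 7, Crabp2 13 and 7, Cyp26b1 12 and 13, Crabp1 4 and 13, and Stra6 1 and 0. Transcripts for secreting retinol, for reducing retinaldehyde and for oxidising retinol were therefore the ones these libraries could resolve by cell type, and those of the 9 genes that make, bind and degrade retinoic acid lay near the detection limit.

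The gene positions are given on GRCm38 with GENCODE vM21. Rbp4 lies at chr19:38116629-38125281 (minus strand) and Dhrs3 at chr4:144892827-144928209 (plus strand). Rdh10 lies at chr1:16105774-16133734, Aldh1a1 at chr19:20492715-20643465, Aldh1a2 at chr9:71215789-71296243, Crabp1 at chr9:54764748-54773110, Crabp2 at chr3:87948666-87953376 and Stra6 at chr9:58063788-58153996, each on the plus strand, and Cyp26b1 lies at chr6:84571414-84593908 on the minus strand. All are protein-coding. Only Stra6 overlapped another annotated gene on its own strand (Gm16131). The RefSeq table (GRCm38.p6) held a window from 250 bases before to 50 bases after a transcription start for 7 of the 9 genes. Because the KO removes an NF-κB inhibitor and because retinoid receptors bind DNA directly, these windows were searched on both strands for the κB site of the immunoglobulin light-chain enhancer, for a looser form that includes it (3 G, any 5 bases, then 2 C) and for the half-sites AGGTCA and AGTTCA. The former site was in 0 of the 7 genes' windows and in 0.155% of all 32851 windows. The looser form was in the windows of 6 of the 7 genes and in 50.8% of all windows. A half-site was found for 1 of the 7 genes, Stra6, as AGTTCA starting 15 bases after a start, against 27.7% of all windows with either half-site. A gene with several windows was counted if any of them matched. The counts of genes and the shares of single windows are therefore unlike measures, and no enrichment can be read from them. The stretches before the starts of Rbp4 and Dhrs3 are printed here, without bases that belong to an exon of the same gene, because the results turn on the levels of these genes. For Rbp4 it is chr19:38124829-38124954 (126 bases, minus strand, 71.4% G or C) and for Dhrs3 chr4:144892577-144892826 (250 bases, plus strand, 61.6% G or C). Capitals mark matches to the looser form on either strand, 2 in each stretch.
Rbp4: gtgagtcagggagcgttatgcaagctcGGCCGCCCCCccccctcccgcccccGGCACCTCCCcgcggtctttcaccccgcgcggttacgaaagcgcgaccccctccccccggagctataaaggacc
Dhrs3: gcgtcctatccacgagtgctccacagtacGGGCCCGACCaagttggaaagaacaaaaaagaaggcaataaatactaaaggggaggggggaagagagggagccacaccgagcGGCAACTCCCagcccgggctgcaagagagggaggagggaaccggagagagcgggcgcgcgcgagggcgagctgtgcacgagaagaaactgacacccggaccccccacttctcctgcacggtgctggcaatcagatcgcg

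Rbp4, the retinol carrier of plasma, was a transcript of the few hepatocyte-like cells that passed the sort. The 27 WT hepatocyte-like cells held 80.3% of the library's Rbp4 UMIs and the 57 KO cells held 82.7%. A further 15.4% and 12.9% lay in cells that passed the hepatocyte gate together with another gate (6 WT and 10 KO cells, with a median of 85718.5 and 49672 UMIs per cell). Only 645 of 14973 WT UMIs (4.31%) and 829 of 18779 KO UMIs (4.41%) lay in the 3425 and 4350 cells outside the hepatocyte gate.

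Every hepatocyte-like cell was Rbp4-positive, in both libraries. Summed over the type, Rbp4 reached 8938 CPM in the WT library (8779 to 9100) and 8306 CPM in the KO library (8176 to 8438). Single WT cells ranged from 4924 to 15690 CPM with a median of 8362, and single KO cells from 2643 to 13937 CPM with a median of 8730. The ranges overlapped over most of their width, and the medians and the sums ordered the libraries in opposite ways. The summed KO/WT log2 ratio was -0.11 (-0.14 to -0.07), a difference of less than the spread between cells of either library. Ttr, which encodes transthyretin, the partner of RBP4 in plasma, gave 8110 and 8344 CPM in the same cells (log2 0.04, 0.01 to 0.08).

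The Rbp4 outside the hepatocyte gate was set against hepatocyte RNA that was freely available to droplets. For this, 7 abundant hepatocyte genes that had not been used for gating (Afp, Ttr, Apoa2, Apoc3, Fga, Fgg and Ambp) served as tracers. It was assumed, and not tested, that RNA from a single source keeps its genes in 1 ratio in every type of a library. Hepatocyte-like cells carried 196 Rbp4 UMIs per 1000 tracer UMIs in WT (193 to 200.3) and 176 in KO (173 to 179). Cells outside the hepatocyte gate carried 178 (163 to 193) and 146 (136 to 157). The observed Rbp4 was thus 0.906 times what the hepatocyte ratio gives in WT (0.832 to 0.985) and 0.832 times in KO (0.773 to 0.895), and with Afp left out of the tracers these became 0.999 (0.911 to 1.09) and 1.01 (0.936 to 1.10). With the gate genes themselves as tracers they were 0.912 (0.835 to 0.994) and 0.796 (0.738 to 0.858). Rbp4 outside the gate was thus at or below the level expected from the hepatocyte ratio, under these 3 tracer sets and in both libraries. Ratios below 1, as in KO erythroid-like cells (0.802, 0.721 to 0.890), are lower than background alone would give under the assumption. Without Afp the KO erythroid-like ratio was 0.989 (0.882 to 1.11), and with the gate genes as tracers 0.756 (0.679 to 0.841). The assumption therefore does not hold exactly in every type under every tracer set, and a low Rbp4 level of the cells' own could go unseen.

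By type, erythroid-like cells (1473 WT and 2052 KO) carried 191 and 141 Rbp4 UMIs per 1000 tracers, neutrophil-like cells 235 and 182, and megakaryocyte-like cells 170 and 188. Stem cell-like cells carried 98.0 (58.6 to 155) in WT and 146 (101 to 204) in KO, and lymphoid-primed-like cells 97.2 (59.0 to 152) and 126 (87.8 to 176). The WT ratios of these progenitors lay below that of hepatocyte-like cells, at 0.499 (0.299 to 0.792) and 0.495 (0.300 to 0.776) times it. Without Afp they lay at 0.718 (0.414 to 1.19) and 0.744 (0.434 to 1.22) times. With the gate genes as tracers they lay at 0.485 (0.288 to 0.777) and 0.531 (0.319 to 0.843) times. The highest ratios were in endothelial-like cells, 271 (202 to 359) in WT and 231 (153 to 339) in KO, and without Afp these were 1.04 (0.765 to 1.40) and 1.09 (0.709 to 1.66) times the hepatocyte ratio. With the gate genes as tracers they were 1.66 (1.22 to 2.25) and 1.52 (0.988 to 2.30) times, so whether endothelial-like Rbp4 exceeds the background depended on the tracers. The gate genes also defined the hepatocyte gate, so cells outside it hold few of their UMIs by selection. This tracer set is therefore not independent of the gate. Neutrophil-like cells lay at 1.198 (0.764 to 1.82) and 1.04 (0.684 to 1.53) times the hepatocyte ratio, and without Afp at 1.62 (0.973 to 2.67) and 1.54 (0.962 to 2.43) times. With the gate genes as tracers they lay at 1.43 (0.886 to 2.24) and 1.03 (0.670 to 1.54) times.

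**Figure D1:**
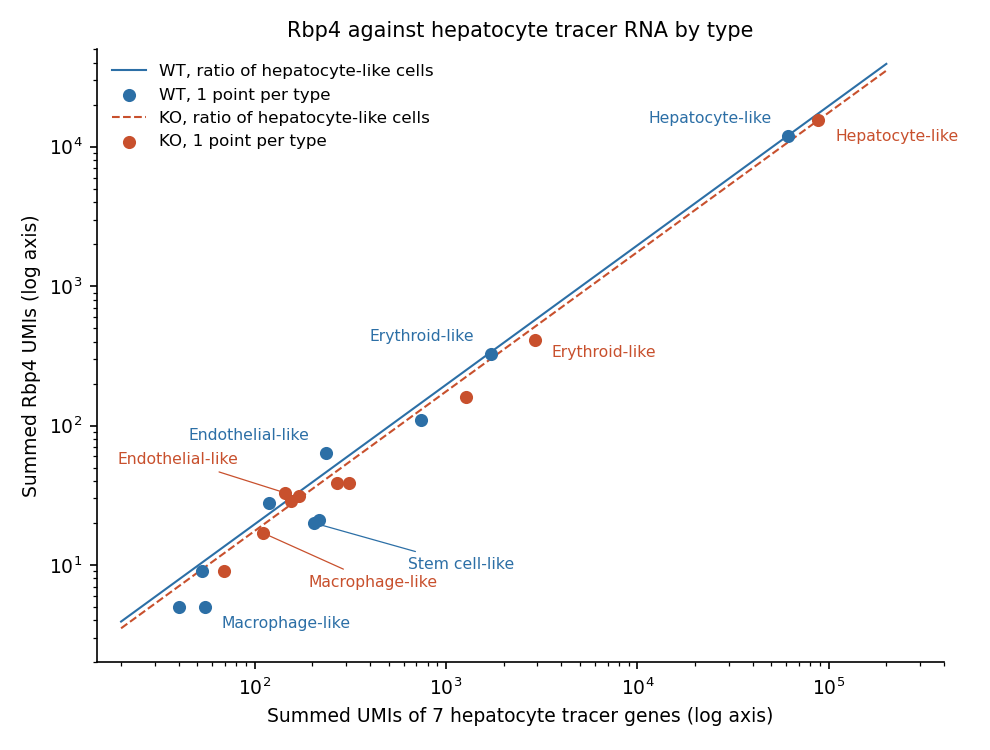
Summed Rbp4 UMIs (vertical, log axis) against the summed UMIs of 7 hepatocyte tracer genes (horizontal, log axis), 1 point per type and library (the gated types with at least 20 cells in each library, and the ungated cells); the lines show the ratio of hepatocyte-like cells in WT (solid) and KO (dashed). Points lie near the lines from 5 Rbp4 UMIs in WT macrophage-like cells to 15535 in KO hepatocyte-like cells, with WT stem cell-like, lymphoid-primed-like and macrophage-like cells at 0.499, 0.495 and 0.463 times their line, KO erythroid-like cells at 0.802 times and WT endothelial-like cells at 1.38 times.

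The Rbp4 level in blood cells differed between the libraries, and the tracers differed in the same direction. In stem cell-like cells Rbp4 gave 20 UMIs in 19 of 351 WT cells and 39 UMIs in 36 of 312 KO cells, 3.60 CPM (2.20 to 5.55) against 11.1 CPM (7.87 to 15.1). The log2 KO/WT ratio was 1.62 (0.81 to 2.48), beside 1.05 (0.78 to 1.32) for the summed tracers in the same cells. No stem cell-like cell held more than 2 Rbp4 UMIs. Lymphoid-primed-like cells gave 3.05 and 6.86 CPM (log2 1.17, 0.37 to 2.01; tracers 0.80), and macrophage-like cells 2.70 and 9.05 CPM from 5 and 17 UMIs (log2 1.75, 0.25 to 3.54; tracers 0.98), a ratio that became -0.068 when the gates were doubled. In ungated cells Rbp4 was 4.13 and 7.49 CPM (log2 0.86; tracers 1.10). The difference was smaller in erythroid-like cells, with 6.14 and 8.07 CPM (log2 0.40, 0.18 to 0.61; tracers 0.83), and in neutrophil-like cells, with 5.55 and 6.53 CPM (log2 0.23, -0.55 to 1.03; tracers 0.60), where the mean over cells gave -0.86. Outside the hepatocyte gate as a whole the tracers stood at 34.0 CPM in the WT and 58.6 CPM in the KO library.

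Endothelial-like cells went the other way, with 92.8 CPM (71.5 to 119) from 39 WT cells and 34.9 CPM (24.0 to 48.9) from 58 KO cells, a log2 ratio of -1.41 (-2.07 to -0.79) beside -1.18 (-1.49 to -0.88) for the tracers. In WT, 2 cells held 38 of the 64 Rbp4 UMIs. The higher of them had 20 Rbp4 and 100 tracer UMIs and was called a doublet, and without both cells the WT level was 41.5 CPM. Within the KO library, 1 erythroid-like cell with 42 Rbp4 and 321 tracer UMIs and 1 ungated cell with 28 and 198, the latter called a doublet, stood apart in the same way.

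**Figure D2:**
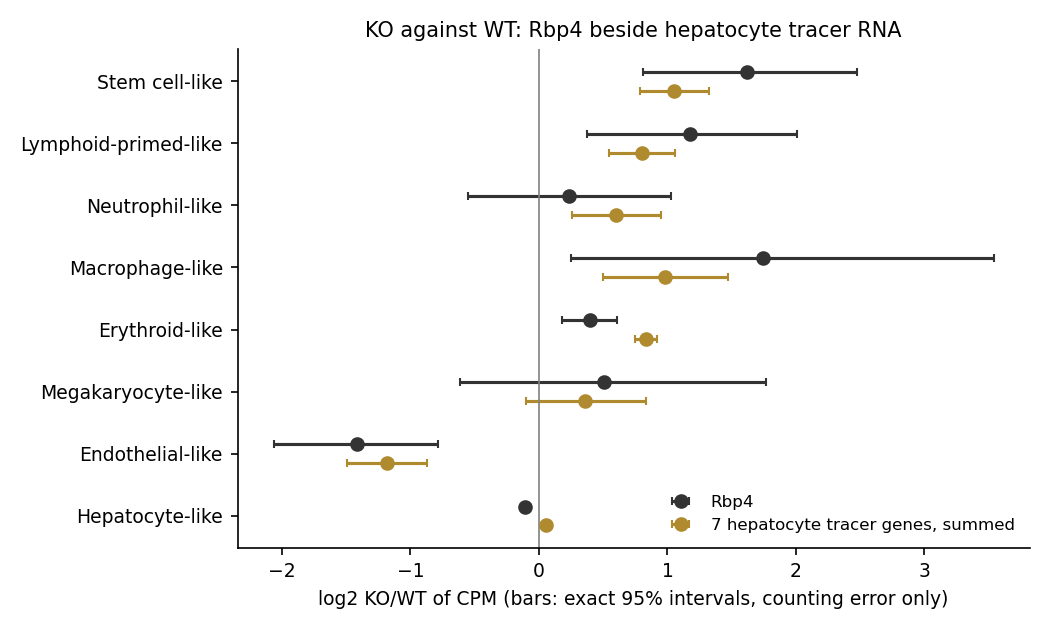
log2 KO/WT of Rbp4 (dark points) and of the summed tracer genes (ochre points) by gated type, with exact 95% intervals that cover counting error only. In stem cell-like, lymphoid-primed-like and macrophage-like cells both lie to the right of 0, in endothelial-like cells both lie to the left, and in hepatocyte-like cells Rbp4 (-0.11) and the tracers (0.05) lie close to 0.

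Dhrs3, the reductase that returns retinaldehyde to retinol, was the member with the clearest pattern across blood cells. Megakaryocyte-like cells had the highest level, 88.3 CPM (71.8 to 107.5) in 25 WT cells and 78.5 CPM (68.0 to 90.2) in 83 KO cells. Macrophage-like cells followed at 52.9 and 50.6 CPM, and monocyte/dendritic-like cells at 45.2 and 45.4 CPM. The intervals of the last 2 types overlapped, and megakaryocyte-like cells stood above both in each library in summed CPM. The median cell had 53.3 (WT) and 47.6 CPM (KO) in megakaryocyte-like cells. It had 24.2 and 38.6 CPM in macrophage-like and 38.2 and 40.2 CPM in monocyte/dendritic-like cells, so the types lay closer by median, above all in KO.

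Below these came endothelial-like cells (40.6 and 30.6 CPM), lymphoid-primed-like cells (30.5 and 27.1), hepatocyte-like cells (27.5 and 43.3) and neutrophil-like cells (25.8 and 19.0). Neighbours in this stretch overlapped in both libraries. Stem cell-like cells gave 15.1 CPM (12.0 to 18.7) in the WT library, below the interval of neutrophil-like cells, and 11.6 CPM (8.35 to 15.8) in the KO library, where the intervals of these types overlapped. Erythroid-like cells were lowest among the types of at least 20 cells, at 3.31 (2.84 to 3.84) and 2.64 CPM (2.21 to 3.13). Mast/basophil-like cells held 0 UMIs in 15 WT cells, which allows up to 6.83 CPM, and 3 UMIs in 18 KO cells. A cluster led by Cpa3, Cma1 and Hdc and named mast/basophil from its markers gave 25.5 and 20.2 CPM, from 151 WT and 184 KO cells. The level of this type thus depended on the grouping. Only 2.19 of the 1392 WT and 5.19 of the 1119 KO Dhrs3 UMIs outside the hepatocyte gate would come from hepatocyte background at the ratio of Dhrs3 to tracers in hepatocyte-like cells.

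**Figure D3:**
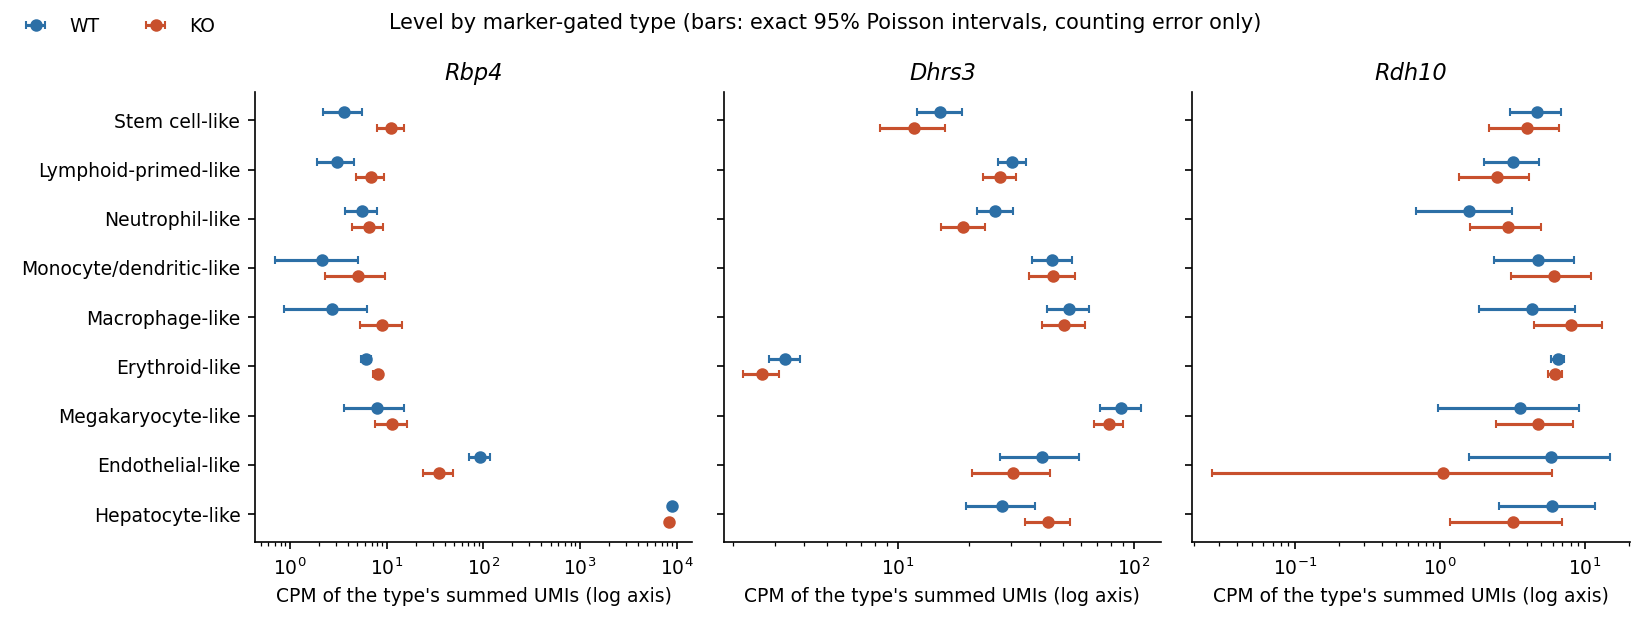
CPM of Rbp4, Dhrs3 and Rdh10 (horizontal, log axes of different range) by gated type with at least 20 cells in each library, in WT (blue) and KO (red), with exact 95% Poisson intervals. Rbp4 is at 8306 CPM or more in hepatocyte-like cells and at 92.8 CPM or less in the other types shown, Dhrs3 runs from 2.64 CPM in KO erythroid-like to 88.3 CPM in WT megakaryocyte-like cells, and no Rdh10 point shown is above 7.99 CPM.

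At an equal depth of 5000 UMIs per cell, which left out 57 WT and 101 KO cells, the expected share of Dhrs3-positive cells was 32.3% (14.9 to 54.3) of WT and 26.2% (17.0 to 37.3) of KO megakaryocyte-like cells. It was 22.6% and 25.9% in macrophage-like, 21.1% and 21.9% in monocyte/dendritic-like, and 18.4% and 14.3% in endothelial-like cells. Lymphoid-primed-like cells reached 12.7% and 11.9%, neutrophil-like cells 11.1% and 8.62%, hepatocyte-like cells 12.0% and 19.8%, and stem cell-like cells 7.46% and 5.91%. Erythroid-like cells, taken here as the type with least Dhrs3, gave 1.54% and 1.16%, which bounds what free Dhrs3 RNA can add in that type only. Background RNA differed between types: the hepatocyte tracers stood at 32.2 and 57.3 CPM in erythroid-like but 342 and 151 CPM in endothelial-like cells. Without thinning the megakaryocyte-like shares were 92.0% and 66.3%, at a median of 44817 and 27673 UMIs per cell.

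**Figure D4:**
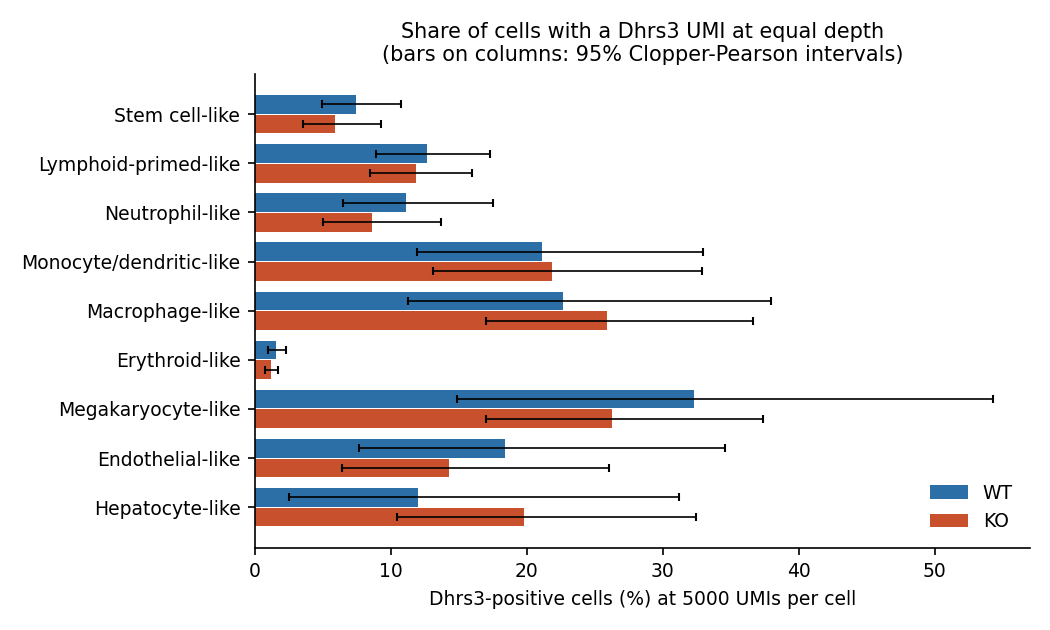
Expected percentage of cells with at least 1 Dhrs3 UMI at 5000 UMIs per cell, by gated type, for WT (blue) and KO (red), with 95% Clopper-Pearson intervals. The intervals of WT and KO overlap in every type shown, and both erythroid-like columns stay below 2%.

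Between the libraries Dhrs3 differed by less than 1.5-fold in the gated types with at least 20 cells, except in hepatocyte-like cells. The log2 KO/WT ratio was -0.17 (-0.52 to 0.19) in megakaryocyte-like cells, -0.06 (-0.49 to 0.36) in macrophage-like, 0.0059 (-0.43 to 0.44) in monocyte/dendritic-like and -0.17 (-0.48 to 0.14) in lymphoid-primed-like cells. Of the 83 KO megakaryocyte-like cells, 24 belonged to the cluster without WT cells, and without them the KO level was 83.0 CPM and the ratio -0.09 (-0.45 to 0.27). In erythroid-like cells it was -0.33 (-0.66 to 0.0043). With clusters in place of gates it was -1.10, but only the cluster led by Arhgdig and Rgcc (205 WT and 249 KO cells) was named erythroid. Further clusters that matched the erythroid markers best stayed unnamed and were left out of that value. An example is the one led by Slc4a1 (307 WT and 537 KO cells). In endothelial-like cells the ratio was -0.41 (-1.21 to 0.40), and -0.82 with clusters. Ratios were also below 0 in neutrophil-like cells (-0.44, -0.85 to -0.04, but 0.060 with doubled gates), in stem cell-like cells (-0.38, -0.95 to 0.18) and in ungated cells, where 14.1 CPM in WT stood against 9.61 CPM in KO (-0.56, -0.81 to -0.31). In hepatocyte-like cells Dhrs3 was higher in KO, with 37 UMIs in 14 of 27 WT cells and 81 UMIs in 37 of 57 KO cells (log2 0.65, 0.08 to 1.26). The median cell had 9.31 CPM (WT) or 36.8 CPM (KO), and cells ranged from 0 to 127 and from 0 to 181 CPM, so the cells of both libraries overlapped throughout.

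Cells were also grouped by clustering without the 9 genes. A cluster led by Pf4 and Treml1 gave 84.8 and 85.0 CPM of Dhrs3. The KO cluster without WT cells, led by Pf4 and Rab27b, gave 18.9 CPM from 105 cells. A cluster led by the complement genes C1qb, C1qa and C1qc gave 54.8 and 50.2 CPM. The cluster led by the lymphoid genes Trbc2, Ighm and Ebf1 gave 38.2 and 32.7 CPM, beside 16.9 and 12.8 CPM in the cluster led by Ltb, Mecom and Hlf. In the haemoglobin-led cluster with Hba-a2 and Hbb-bh1 it was 1.15 and 1.24 CPM.

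Rdh10, which oxidises retinol to retinaldehyde and so opposes DHRS3, was low and spread over all types. Erythroid-like cells, the most numerous, gave 6.49 CPM in the WT library (5.83 to 7.21) and 6.22 CPM in the KO library (5.56 to 6.95), from 347 UMIs in 273 cells and 316 UMIs in 278 cells. Stem cell-like cells gave 4.67 (3.05 to 6.85) and 3.97 CPM (2.17 to 6.67), lymphoid-primed-like cells 3.19 and 2.46, monocyte/dendritic-like cells 4.73 and 6.16, and macrophage-like cells 4.32 and 7.99. Hepatocyte-like cells gave 5.95 and 3.21 CPM from 8 and 6 UMIs. The intervals of neighbouring types overlapped along the whole order in both libraries. Over greater distances in the order, the erythroid-like interval lay above those of lymphoid-primed-like cells (2.00 to 4.83 in WT, 1.35 to 4.13 in KO), neutrophil-like cells (0.684 to 3.12 and 1.61 to 4.95) and ungated cells (3.53 to 5.15 and 2.99 to 4.69).

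The erythroid-like log2 KO/WT ratio of Rdh10 was -0.06 (-0.29 to 0.16), and 0.36 with doubled gates. At 5000 UMIs per cell, 2.71% of WT and 2.59% of KO erythroid-like cells were positive, beside 2.28% and 1.90% of stem cell-like cells, and with doubled gates the erythroid-like shares were 1.33% and 1.65%. By cluster, Rdh10 was 11.2 and 8.29 CPM in a cluster led by Sh2d4a, C2cd4a and Sphk1, 8.26 and 9.17 CPM in one led by Sh2d4a and Slc26a1, 7.25 and 7.48 CPM in one led by Arhgdig and Rgcc, 5.40 and 4.28 CPM in one that contained Car1 among its leading genes, 3.06 and 3.34 CPM in one led by Slc4a1, and 1.15 and 1.49 CPM in the haemoglobin-led cluster with Hbb-bh1. In the clusters led by Sh2d4a, Dhrs3 was 1.66 and 1.15 CPM and 1.65 and 1.74 CPM, below the Rdh10 of the same cells. In the one led by Slc4a1, Dhrs3 was 4.77 and 3.34 CPM beside 3.06 and 3.34 CPM of Rdh10. The 2 genes were thus equal there in KO, and their WT intervals overlapped (3.39 to 6.53 and 1.98 to 4.52). These clusters are described and were not tested against each other.

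Of the 9 genes, the 2 that make retinoic acid, Aldh1a1 and Aldh1a2, were nearly absent. Aldh1a2, the main retinaldehyde dehydrogenase of the early embryo, gave 32 WT and 7 KO UMIs, but 28 of the WT UMIs came from 1 cell of 11055 UMIs that passed the stem cell gate and the mesenchymal gate. The same cell held 10 of the 13 WT Crabp2 UMIs, 73 UMIs of Dcn, 22 of Col3a1 and 15 of Col1a2, with 3 of Hlf and none of Ptprc or Kit. Decorin (Dcn) and the collagens mark mesenchymal cells, whereas Ptprc encodes CD45, the surface mark of blood cells. In KO, 12 of 13 Crabp1 UMIs came from 1 cell of 4020 UMIs, the only cell assigned to the mesenchymal gate, and that cell also held 2 UMIs of Aldh1a2, 1 of Crabp2, 5 of Col1a1, 8 of Col1a2 and 5 of Col3a1. Beyond these, a Dcn- and Reln-positive WT cell that passed the macrophage, endothelial and mesenchymal gates held 2 Crabp1 UMIs and 5 UMIs of Lrat, the enzyme that stores retinol as esters in stellate cells. In all, 5 WT and 3 KO cells passed the mesenchymal gate alone or with others, and no cell passed the mesothelial gate.

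Without the cells of the mesenchymal gate, Aldh1a2 and Crabp2 were left with 4 WT and 5 KO UMIs and with 3 WT and 6 KO UMIs, at 1 UMI per cell, in erythroid-like, macrophage-like, ungated and other cells. The lower KO sums of both genes over all kept cells (log2 -2.06 for Aldh1a2 and -0.76 for Crabp2) rested on that 1 WT cell, and without the mesenchymal-gate cells they became 0.45 (-1.77 to 2.78) and 1.13 (-1.10 to 3.75). In stem cell-like cells Aldh1a2 and Crabp2 gave 0 UMIs in both libraries, which allows up to 0.855% of WT and 0.962% of KO cells with a UMI.

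Aldh1a1, another retinaldehyde dehydrogenase, gave 14 UMIs in 11 WT and 9 UMIs in 8 KO erythroid-like cells, 1 and 6 UMIs in hepatocyte-like cells, and 2 and 0 in stem cell-like cells. Aldh1a7, a close copy of Aldh1a1 that can share reads with it, gave 27 and 42 UMIs in erythroid-like cells, so the split between these 2 genes is uncertain. Of the erythroid-like cells with Aldh1a1, 1 of 11 in WT and 0 of 8 in KO also held Aldh1a7.

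Cyp26b1, which breaks down retinoic acid, was rare. Of 12 WT and 13 KO UMIs, 7 and 7 lay in stem cell-like cells, in 5 of 351 WT cells (1.42%) and 7 of 312 KO cells (2.24%), with at most 2 UMIs per cell. By cluster, 2 and 4 UMIs lay in the one led by Ltb, Mecom and Hlf and 6 and 5 in the one led by Adgrl4 and Hlf. Erythroid-like cells held 0 in 1473 WT and 2052 KO cells, which allows up to 0.204% and 0.146% of cells with a UMI and does not limit cells that express the gene below detection. Lymphoid-primed-like cells held 2 and 0 UMIs, ungated cells 3 and 2, and endothelial-like cells 0 in 39 WT cells and 4 in 3 of 58 KO cells (5.17%). In the KO library this was 4.22 CPM (1.15 to 10.8) in endothelial-like cells beside 1.99 CPM (0.799 to 4.09) in stem cell-like cells. At 5000 UMIs the expected share in stem cell-like cells was 0.606% (0.078 to 2.13) in WT and 1.27% (0.327 to 3.32) in KO, and no difference between the libraries was detectable at this depth. Stra6, the retinol receptor, gave a single UMI in a WT stem cell-like cell and 0 UMIs in 4417 KO cells, which allows up to 0.0679% of cells with a UMI.

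The members past 1.5-fold were counted in each type among genes with at least 20 UMIs over both libraries, beside the share of all genes so counted. In stem cell-like cells 1 of 3 members (Rbp4) was higher in KO, against 3.38% of all genes higher and 4.94% lower. In lymphoid-primed-like cells it was 1 of 3 (Rbp4; 4.09% higher and 3.98% lower) and in ungated cells 1 of 3 (Rbp4; 3.49% and 3.46%). Neutrophil-like cells had 1 of 3 (Rdh10, from 8 and 14 UMIs; 3.80% and 3.75%), macrophage-like cells 2 of 3 (Rbp4 and Rdh10; 13.1% and 7.85%), and hepatocyte-like cells 1 of 2 (Dhrs3; 11.6% and 4.67%). Endothelial-like cells had 1 of 2 lower (Rbp4; 7.18%, with 11.6% of genes higher). None of 4 was past the fold in erythroid-like cells (4.72% and 2.41%), none of 2 in monocyte/dendritic-like cells (6.79% and 5.29%) and none of 2 in megakaryocyte-like cells (9.22% and 6.74%). Over all kept cells 2 of 7 were lower, Aldh1a2 and Crabp2 (3.23% of genes lower, 5.13% higher), on the 1 WT cell described above. With so few members tested, these counts are a description of the listed genes only, and the Rbp4 entries among them moved with the hepatocyte tracers.

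The wider pathway was read from 38 further retinoid genes found in the tables, of which 18 had at least 100 UMIs over both libraries, 17 had fewer and 3 (Rbp3, Sdr16c5 and Cyp26c1) had none. Rdh12, a retinaldehyde reductase, was highest in stem cell-like cells, at 18.0 and 12.5 CPM (log2 -0.53, -1.07 to -0.00035), and gave 0.187 and 0.295 CPM in erythroid-like cells. Rbp2, a carrier protein best known from the intestine, gave 68.4 and 67.4 CPM in hepatocyte-like cells and 6.65 and 6.53 CPM in stem cell-like cells, a type in which the summed tracers stood at 36.7 and 76.1 CPM against 45518 and 47267 CPM in hepatocyte-like cells.

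Among the enzymes that make retinoic acid, Aldh1a3 had the most UMIs, 1235 in WT and 1373 in KO. It was 15.9 CPM and 17.7 CPM in erythroid-like cells (log2 0.15, 0.02 to 0.29) and 3.60 and 7.09 CPM in stem cell-like cells, from 20 and 25 UMIs (log2 0.98, 0.07 to 1.91). In ungated cells Aldh1a3 was 7.74 and 11.8 CPM (log2 0.61, 0.34 to 0.89). Among the gated types with at least 20 cells, hepatocyte-like cells had the highest level of Bco1, which splits carotene into retinaldehyde (35.0 and 38.0 CPM). The same held for Aldh8a1 (63.2 and 59.3 CPM) and Rdh5 (44.6 and 33.7 CPM). Fabp5 encodes a fatty acid-binding protein that also carries retinoic acid. It gave 6184 and 5681 CPM in hepatocyte-like, 2411 and 2187 CPM in endothelial-like and 1072 and 1085 CPM in erythroid-like cells. The remaining abundant genes (Adh5, Akr1b3, Dhrs4, Rdh11, Rdh13, Rdh14, Retsat and Dgat1) were found in all gated types with at least 20 cells, for example Adh5 at 171 and 165 CPM in stem cell-like and 120 and 113 CPM in erythroid-like cells.

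**Figure D5:**
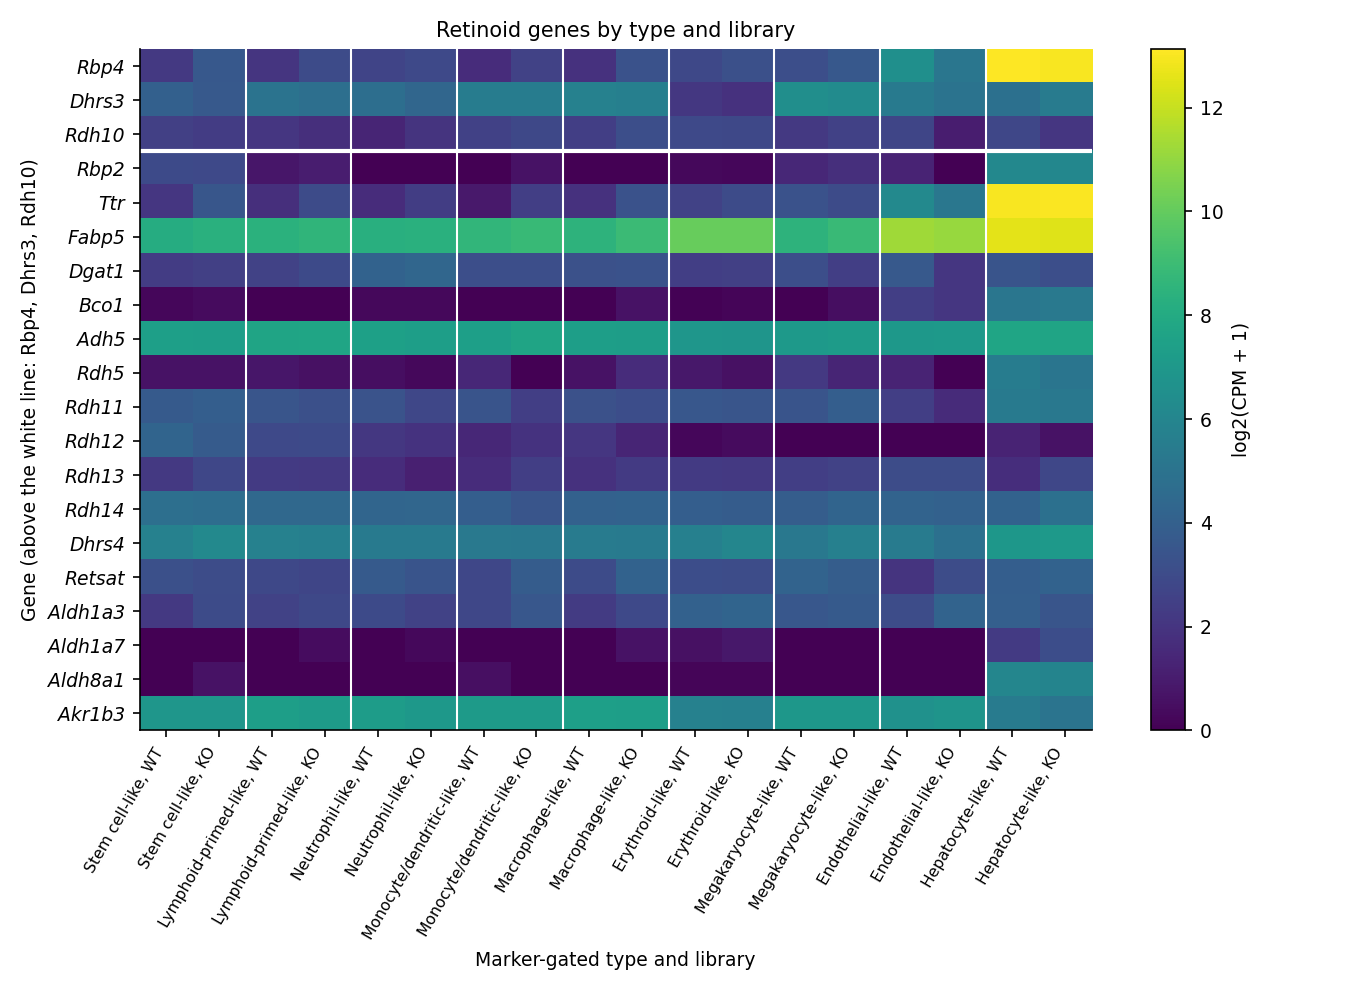
log2(CPM + 1) of Rbp4, Dhrs3, Rdh10 and 17 further retinoid genes with at least 100 UMIs (rows) by gated type and library (columns, WT left and KO right in each pair). Rbp4 and Ttr are brightest in the hepatocyte-like columns, and Dhrs3 is darkest in the erythroid-like columns.

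Of the further retinoid genes, 3 of 14 with at least 20 UMIs were past 1.5-fold higher in KO stem cell-like cells (Ttr, Rdh13 and Aldh1a3, of which Rdh13 reversed to -0.24 with doubled gates) and none lower (3.38% of all genes higher), with a median log2 ratio of 0.15 beside -0.00017 for all genes. It was 1 higher of 13 in lymphoid-primed-like cells (Ttr; 4.09%), and 2 higher of 10 in macrophage-like cells (Ttr and Retsat; 13.1%). Erythroid-like cells had 2 higher of 16 (Rdh12 and Aldh1a7; 4.72%), megakaryocyte-like cells 1 lower of 11 (Dgat1; 6.74% of all genes lower), and hepatocyte-like cells 2 higher of 17 (Stra6l and Rdh14; 11.6% higher). Neutrophil-like cells had 1 higher (Ttr; 3.80%) and 1 lower (Rdh11; 3.75%) of 12, monocyte/dendritic-like cells 2 higher (Retsat and Aldh1a3; 6.79%) and 1 lower (Rdh11; 5.29%) of 10, and endothelial-like cells 1 higher (Aldh1a3; 11.6%) and 2 lower (Ttr and Dhrs4; 7.18%) of 8, where Dhrs4 reversed to 0.057 in cells with Xist. With so few genes tested per type, these counts are a description, and Ttr was itself a tracer. The median log2 ratio over all genes tested ran from -0.0059 in erythroid-like to 0.064 in hepatocyte-like cells.

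For each member with at least 100 UMIs, the genes with the most similar level over 20 points (the types with at least 20 cells in each library, ungated cells included) were ranked by Pearson's r of log2(CPM + 1) among 11519 genes. Rbp4 was closest to Ttr (0.996), Apoa2 (0.994) and Vtn (0.993). Dhrs3 was closest to Bin1 (0.918), Actg1 (0.901) and Slc25a11 (0.894), and Rdh10 to Metap1d (0.707), Ccdc84 (0.659) and Lrrc14 (0.656). Points of a library share its depth and background RNA, so these values are a description of likeness.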

How the data were processed

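Droplet-based single-cell RNA-seq (3′ kit) was made from sorted E14.5 fetal liver cells, 1 WT and 1 KO library. The authors processed the reads with Cell Ranger (version 6.0.0, build mm10, per the submitters' processing notes) and deposited UMI counts that are not normalized, 109122324 UMIs in 3840 WT barcodes and 100029143 in 4928 KO barcodes. The annotation release is not given in the sources used here. A UMI is counted once however often it was copied, but reads of near-identical genes can be lost or split.

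Barcodes were kept from 1000 detected genes upward where mitochondrial UMIs did not exceed 20%. Types were gated on the marker lists by UMIs per 10000 (from 3 for stem cell-like to 50 for hepatocyte-like cells), and gate levels were set after the counts had been seen. Cells passing several unrelated gates were set apart (79 WT, 131 KO), and 927 WT and 1043 KO cells passed none. Doublets called by Scrublet (3.47% and 5.23%) were kept. UMIs were summed per type and library as CPM and given exact Poisson intervals. Ratios of KO to WT, on the log2 scale and with an exact conditional interval, needed 20 UMIs over both libraries, and a sum of 0 was set to 3 UMIs. Shares carry Clopper-Pearson intervals, and the expected share at 5000 UMIs was computed exactly over all possible draws. Limits given for 0 UMIs are those of 3 UMIs, or of 3 cells for a share, and lie below the upper ends of the exact intervals. Intervals and floors cover counting error only. The interval method was tested on simulated data. Python 3.11.15, scanpy 1.11.5, scipy 1.17.1 and numpy 2.4.6 were used. Positions came from GENCODE vM21 (GRCm38) and promoter windows from RefSeq (GRCm38.p6).

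The genes, lists and markers were chosen with earlier results of these data known. Named were the 9 genes, Nfkbia, further retinoid genes with at least 100 UMIs, the 3 genes most like each abundant member, and markers or tracers where a result turned on them. Of the further retinoid genes, 1 is counted but not reported here. Stra6l, Lrat, cluster-leading genes and genes past the fold with fewer UMIs were named after their values had been seen. Alternatives were other cell filters, doublets removed, doubled gates, clusters (2000 variable genes, 20 components, 20 neighbours, resolution 0.8), other scalings, other thinning depths, other tracers and cells with Xist only, and, added after seeing the data, leaving out mesenchymal-gate cells and the cluster without WT cells.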

Additional observations from a re-analysis of the deposited data

Results flagged for a closer look

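Rbp4 was flagged because its KO/WT ratio took opposite directions in gated types, past 1.5-fold each way. It was higher in KO in stem cell-like cells (log2 1.62), lymphoid-primed-like cells (1.17) and macrophage-like cells (1.75), and lower in KO in endothelial-like cells (-1.41). The macrophage-like ratio was -0.068 with doubled gates, and in endothelial-like cells 2 WT cells held 38 of 64 UMIs, without which the WT level was 41.5 CPM beside 34.9 CPM in KO. With 1 library per genotype the difference between the types was not tested. The summed hepatocyte tracers had log2 ratios of 1.05, 0.80, 0.98 and -1.18 in the same types, and in hepatocyte-like cells the Rbp4 ratio was -0.11. Whether the tracers account for the Rbp4 ratios in full was not tested.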

How the results depend on the processing

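No paired analysis was possible because there is only 1 library of each genotype. Of the main values recomputed under each alternative, 184 stayed within their counting interval and 35 moved, and of the other values 2127 stayed, 91 moved and 7 reversed. The sign of a main log2 ratio changed only for Rdh10 in erythroid-like cells, from -0.06 to 0.36 with doubled gates and 0.046 with clusters. The cluster value covers only the cluster named erythroid, led by Arhgdig and Rgcc.

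The log2 ratio of Rbp4 in hepatocyte-like cells was -0.00064 without doublet calls, -0.018 with doubled gates and -0.17 under median-of-ratios scaling, and over all kept cells it was 0.40 without doublet calls, 0.098 in cells with Xist but no Y-linked UMI and 0.60 as a mean over cells. In the cluster named erythroid, led by Arhgdig and Rgcc, it was 0.17. Rbp4 per 1000 tracers in hepatocyte-like cells was 392 in WT and 359 in KO without Afp, 277 and 249 with the gate genes as tracers, and 169 in KO cells with Xist. Outside the gate it was 392 and 364 without Afp, 252 and 198 with the gate genes, and 162 in KO with doubled gates. Dhrs3-positive shares rose with depth by construction: at 10000 UMIs they were 48.8% (KO megakaryocyte-like), 22.01% and 21.8% (lymphoid-primed-like) and 14.3% and 9.63% (stem cell-like), and without thinning 92.0% and 66.3%, 41.0% and 33.0%, and 20.5% and 12.5%. Rdh10-positive erythroid-like shares were 5.13% and 5.24% at 10000 UMIs, 18.5% and 13.5% without thinning, and 1.33% and 1.65% with doubled gates.

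Among ratios past 1.5-fold, the sign reversed for Rbp4 in macrophage-like cells (-0.068) and Rdh13 in stem cell-like cells (-0.24) with doubled gates, for Dhrs4 in endothelial-like cells (0.057) in cells with Xist, and, without mesenchymal-gate cells, for Crabp2 (1.13 over all cells, 1.14 outside the hepatocyte gate) and Aldh1a2 (0.45 and 0.14). Among smaller ratios, 19 changed sign beyond the counting interval, of the 9 genes those of Dhrs3 in neutrophil-like cells (0.060, doubled gates) and in macrophage-like cells (0.36, mean over cells) and of Rbp4 in neutrophil-like cells (-0.86, mean over cells). Except for Crabp2 and Aldh1a2, where 1 WT cell holds most UMIs, the cause was not tested. Pools of few embryos, 1 library per genotype, the sort, unequal depth and gate levels limit all values.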
